A study of Mus musculus with 15 samples.

Results

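Wounded mouse skin 5 days into repair was compared with day 0 skin by mRNA sequencing, using the 3 libraries of day 5 and the 3 libraries of day 0, which are 6 of the 15 libraries of a wounding course that also sampled day 1, 3 and 7. Both groups came from skin of C57BL/6 mice, an inbred laboratory strain, and were chosen by the time given in their titles. The labels give wounding as the stress for day 0 libraries as well as for day 5 libraries, and they give no age, sex or kind of wound. Whether the 3 libraries of a day are 3 animals is not stated, so the p-values below speak only for the spread among these libraries, and that spread may be technical. The tissue was freed of muscle and fat before RNA was extracted, per the labels' protocols.

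Skin closes a wound in overlapping phases. Blood cells and macrophages enter first, keratinocytes at the edge then divide and move over the gap, and fibroblasts fill the bed with new matrix while vessels grow in. The skin also holds nerve fibres wrapped by Schwann cells, resident macrophages around vessels, hair follicles that cycle between growth and rest, and a circadian clock in most of its cells.

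The total of estimated counts was 60450396, 52685585 and 51889573 in the day 5 libraries and 52620750, 39536576 and 49461513 in the day 0 libraries. Epidermal and dermal markers were strong in all 6 libraries: the basal keratin Krt14 stood at 3653, 2712 and 3998 CPM at day 5 and at 2215, 923 and 1001 CPM at day 0 (TMM-scaled CPM, the reads of a gene relative to library size), and the collagen Col1a1 at 10596, 6751 and 11754 CPM against 16517, 18663 and 15334 CPM. A library of each group stood apart. A list of 29 measured hair shaft and follicle genes took 2.40% of the counts in day 5 replicate 2, against 0.133% and 0.0162% in day 5 replicates 1 and 3 and 0.0201%, 0.0501% and 0.263% in the day 0 libraries. In day 0 replicate 1 the wound keratin Krt6a stood at 708 CPM, against 54.3 and 95.2 CPM in day 0 replicates 2 and 3. The 13 mitochondrially encoded genes took 7.83%, 7.42% and 8.70% of the counts at day 5 and 5.29%, 6.30% and 5.95% at day 0. Skeletal muscle genes took 0.804%, 0.566% and 0.910% at day 5 and 1.02%, 1.56% and 1.48% at day 0.

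Of 17136 genes tested, 86 differed between day 5 and day 0 at an edgeR adjusted p under 0.05, which is 0.502% of the genes, and such genes are referred to as called. Of these, 36 were higher at day 5 (0.21%) and 50 were lower (0.292%), and 25 and 35 of them differed by at least 2-fold. These shares, 0.21% and 0.292%, are the background for every count of called list members from the same fit below. The lists were chosen with earlier results of these data known, so such counts are given as a description only. The median log2 fold change of day 5 over day 0 over all genes tested was 0.01, and 3374 genes had an unadjusted p under 0.05. The 3 day 5 values and the 3 day 0 values did not overlap in 84 of the 86 called genes, against 26.2% of all genes tested, and the 86 were selected by the same contrast, so nothing is read from that count.

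**Figure D1:**
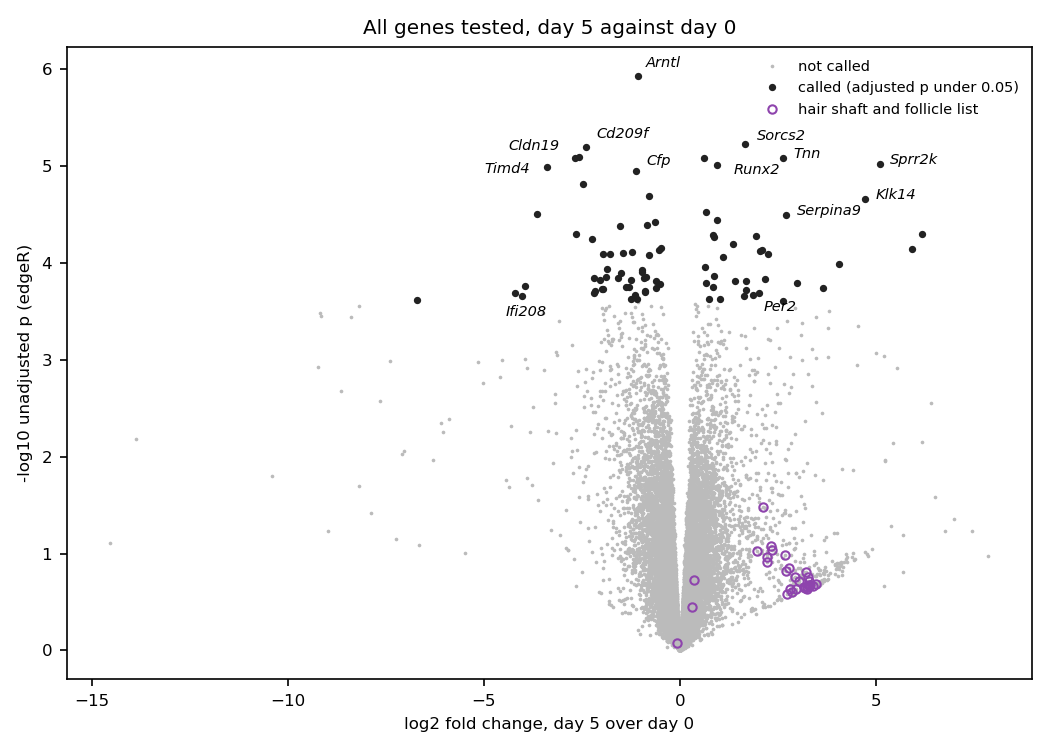
Log2 fold change of day 5 over day 0 (x axis) against the -log10 of the unadjusted edgeR p (y axis) for all 17136 genes tested, with the 86 called genes in black and the 29 measured hair shaft and follicle genes ringed. Arntl has the smallest p, and no ringed gene is called.

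The number of called genes depended on single libraries. Without day 5 replicate 1, day 0 replicate 2 or day 0 replicate 3, edgeR called 0 genes, while 3046, 2112 and 2311 genes had an unadjusted p under 0.05 in those fits. Without day 5 replicate 2 it called 75 genes, 63 higher (0.363%) and 12 lower (0.0691%), with 36 of the 75 among the 86, and without day 5 replicate 3 it called 7 genes, all among the 86. Without day 0 replicate 1 it called 495 genes, 253 higher (1.45%) and 242 lower (1.39%), with 79 of the 495 among the 86. DESeq2 on all libraries called 1159 genes, 509 higher (3.00%) and 650 lower (3.83%), including all 86. Every one of the 86 kept its direction in each of these fits. The 86 were selected from the same libraries, so nothing is read from that. The genes called most often without a library, Arntl, Cd209f, Serpina9, Sorcs2, Sprr2k and Timd4, were called in 3 of the 6 such fits.

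**Figure D2:**
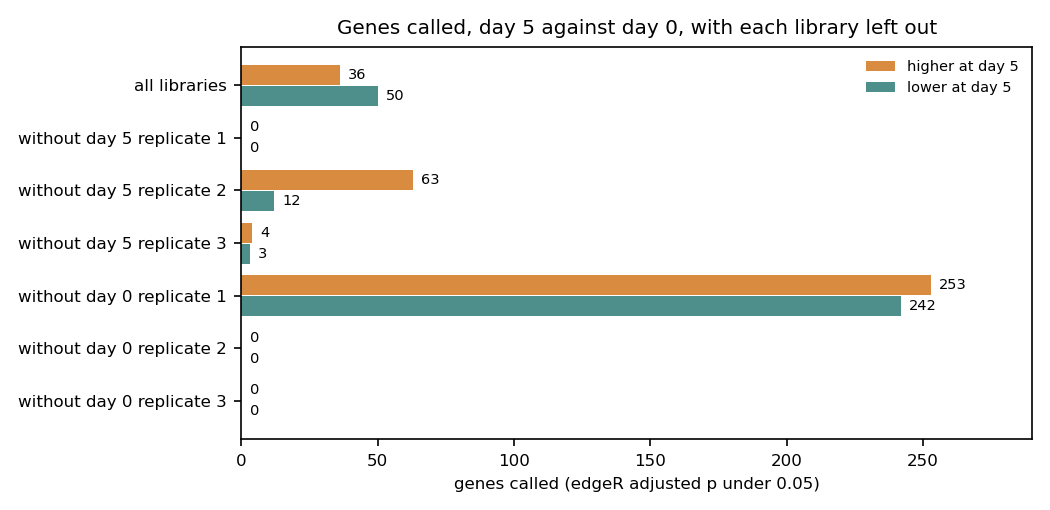
Number of genes called higher and lower at day 5 than at day 0 by edgeR (x axis) with all libraries and when 1 of the 6 libraries is left out. The count runs between 0 and 495, and the longest bars are those without day 0 replicate 1.

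Of 22 measured genes of Schwann cells and peripheral myelin, 5 fell at day 5 and 0 rose, against 0.292% and 0.21% of all genes. The median log2 fold change of the list was -1.06 against 0.01 for all genes. Prx, the Schwann cell scaffold protein periaxin, had 7.45, 14.2 and 12.8 CPM in the day 5 libraries, against 45.1, 42.2 and 46.3 CPM in the day 0 libraries. Each day 5 value lay far below each day 0 value, with replicate 1 the lowest at day 5. Its log2 fold change was -1.96 ± 0.37 (standard error), a 3.88-fold lower level, with an edgeR adjusted p of 0.0458.

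Cldn19, a claudin of the tight junctions of Schwann cells, had 1.06, 1.23 and 1.65 CPM in day 5 skin, against 7.89, 7.03 and 8.44 CPM in day 0 skin, a log2 fold change of -2.56 ± 0.35 (edgeR adjusted p = 0.0174). Mbp, the myelin basic protein, had 37.4, 43.9 and 59.4 CPM in day 5 skin, against 162, 181 and 172 CPM in day 0 skin (-1.87 ± 0.35, edgeR adjusted p = 0.0457). In both genes the groups were also separate in every library, which the rule that named them required, and the day 0 libraries lay close together. Ncmap, a protein of noncompact myelin, fell as well, to 1.39 ± 0.0903 CPM at day 5 against 6.59 ± 1.04 CPM at day 0 (SD, n = 3 each), with a log2 fold change of -2.24 ± 0.38 and an edgeR adjusted p of 0.0362. Outside the list, the myelin lipid carrier Pmp2 fell by 2.46 on the log2 scale (edgeR adjusted p = 0.0219) and Ugt8a, the enzyme that makes the myelin lipid galactosylceramide, fell by 2.20 (edgeR adjusted p = 0.0464).

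The members of the list that edgeR did not call with all libraries did not all lie on the same side. The 4 that follow were picked with their values in view. Mag, the myelin-associated glycoprotein, had 1.34, 0.988 and 1.004 CPM at day 5 and 3.36, 3.31 and 4.03 CPM at day 0, and Pmp22, a further myelin protein, had 136, 125 and 183 CPM and 295, 289 and 281 CPM in the same order; neither gene's groups overlapped (edgeR adjusted p = 0.0538 and 0.0723). Sox10, the transcription factor that marks Schwann cells and melanocytes, had 9.35, 10.7 and 11.4 CPM at day 5 and 10.1, 8.91 and 9.11 CPM at day 0, which overlap (log2 fold change 0.16 ± 0.22, edgeR adjusted p = 0.701). Ngfr, a neurotrophin receptor of immature and injured Schwann cells and of other skin cells, had 36.9, 29.4 and 39.4 CPM at day 5 and 18.7, 19.6 and 20.2 CPM at day 0 (0.86 ± 0.31, edgeR adjusted p = 0.175). In whole tissue, fewer cells of a type and less RNA per cell cannot be told apart. DESeq2 called 14 of the 22 genes lower and 0 higher, against 3.83% of all genes lower and 3.00% higher.

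Of 20 measured markers of resident dermal macrophages, the macrophages that live in undamaged skin, 4 fell at day 5 and 0 rose. Over all genes 0.292% fell and 0.21% rose. The list's median log2 fold change was -1.08. Cd209f, a C-type lectin of the DC-SIGN family, had 20.3, 13.6 and 27.7 CPM at day 5, compared with 112, 109 and 103 CPM at day 0. Day 5 replicate 2 was the lowest and the groups were far apart, with a log2 fold change of -2.40 ± 0.32 (edgeR adjusted p = 0.0174). Its relative Cd209g had 6.53, 4.53 and 8.43 CPM in day 5 skin, against 31.2, 47.3 and 46.8 CPM in day 0 skin (-2.68 ± 0.37, edgeR adjusted p = 0.0174); reads shared among the close copies of this family may have been split between them. Timd4, a receptor for phosphatidylserine on dying cells, had 0.524, 0.429 and 1.40 CPM at day 5, compared with 9.27, 7.16 and 8.14 CPM at day 0, a 10.5-fold lower level (-3.39 ± 0.48, edgeR adjusted p = 0.0174). Fcna, the lectin ficolin A that starts complement, had 14.5, 8.04 and 12.7 CPM in day 5 skin, against 35.7, 43.2 and 41.4 CPM in day 0 skin (-1.77 ± 0.31, edgeR adjusted p = 0.0364).

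Other markers of these cells, chosen after their values were seen, were not called by edgeR with all libraries. DESeq2 called 9 of the 20 measured markers lower and 0 higher, against 3.83% of all genes lower and 3.00% higher. Mrc1, the mannose receptor, had 376, 235 and 445 CPM at day 5 and 541, 510.2 and 536 CPM at day 0, without overlap (log2 fold change -0.59 ± 0.23, edgeR adjusted p = 0.199). Folr2, a folate receptor of resident macrophages, had 87.2, 59.2 and 105 CPM at day 5 and 121, 244 and 268 CPM at day 0 (-1.33 ± 0.33, edgeR adjusted p = 0.0749). The summed level of the 20 markers was 2922, 2077 and 3404 CPM at day 5 and 3810.1, 5006 and 4487 CPM at day 0, so the groups did not overlap and day 5 replicate 2 was again lowest. Without day 5 replicate 2 the median was -0.84, Cd209f, Cd209g and Timd4 were called lower (0.0691% of all genes in that fit) and Fcna was not (edgeR adjusted p = 0.0630).

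Among 20 monocyte and general macrophage genes, 1 fell and 0 rose (median -0.60), against 0.292% and 0.21% of all genes. The gene that fell was Itgam, the integrin chain CD11b of myeloid cells, with 74.0, 60.8 and 67.0 CPM at day 5, compared with 163, 114 and 170.4 CPM at day 0 (-1.15 ± 0.22, edgeR adjusted p = 0.0467). Arg1, the arginase of repair macrophages, which was chosen after its values were seen, had 97.8, 64.1 and 51.1 CPM at day 5 and 12.99, 13.2 and 18.5 CPM at day 0; its values did not overlap, at a log2 fold change of 2.25 ± 0.50 and an edgeR adjusted p of 0.0614. Of 15 complement genes 1 fell: Cfp, properdin, which stabilises the alternative pathway's convertase, had 104, 66.4 and 91.9 CPM in day 5 skin, against 161, 196 and 211 CPM in day 0 skin (-1.11 ± 0.16, edgeR adjusted p = 0.0177). The list's median was -0.53. Itgam and Cfp averaged 182 and 180.5 CPM at day 3, and the direct test of day 5 against day 3 gave both an edgeR adjusted p of 0.0561.

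Other genes that fell include Bank1, a scaffold protein of B cell signalling, with 1.74, 1.29 and 1.26 CPM at day 5, compared with 4.64, 5.92 and 6.21 CPM at day 0 (-1.97 ± 0.34, edgeR adjusted p = 0.0364). Of 9 B and plasma cell genes none was called, and their summed level was 93.0, 68.0 and 107 CPM at day 5 and 102, 197 and 195 CPM at day 0. Hrh1, the histamine H1 receptor, had 2.60, 2.13 and 2.54 CPM in day 5 skin, against 5.11, 8.58 and 7.31 CPM in day 0 skin (-1.53 ± 0.25, edgeR adjusted p = 0.0338). Has2, which makes the matrix sugar hyaluronan, had 9.87, 8.54 and 9.59 CPM at day 5, compared with 20.6, 26.7 and 18.1 CPM at day 0 (-1.22 ± 0.21, edgeR adjusted p = 0.0364). Hrh1 and Has2 were chosen after their values were seen.

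**Figure D3:**
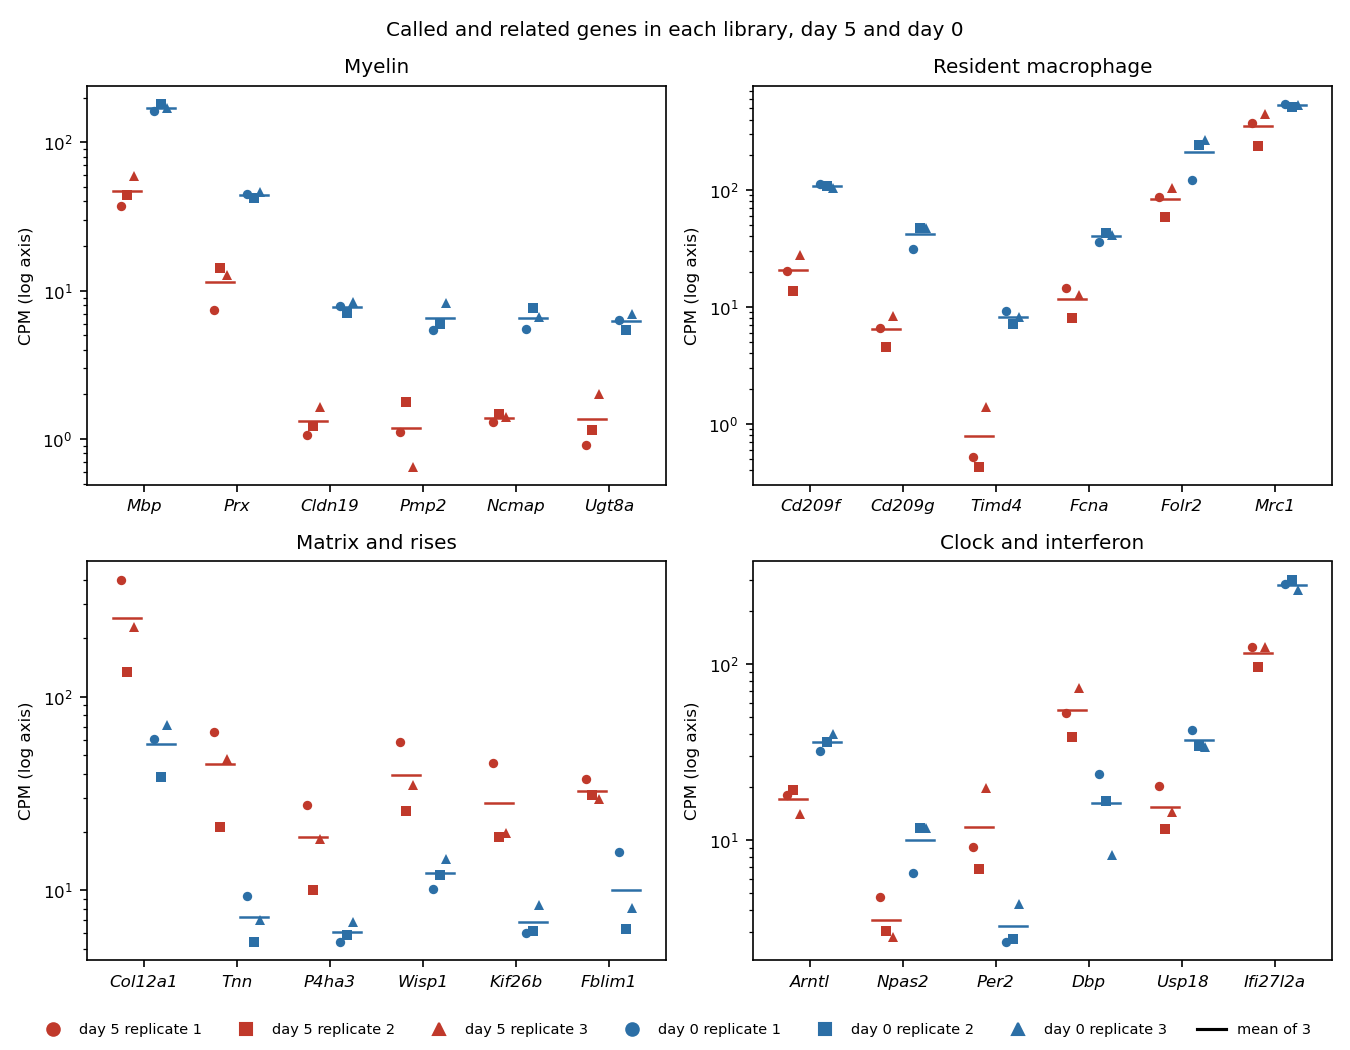
Level in CPM on a log axis of 24 genes in the 3 day 5 libraries (left of each pair) and the 3 day 0 libraries (right), with marker shapes for the replicates and lines for the mean of 3. Day 5 lies below day 0 in all 6 myelin genes shown, and above it in all 6 genes of the matrix panel.

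Interferon signals through STAT and IRF factors, and ISGF3 binds a response element in the promoters of its targets. Of 20 measured interferon-stimulated genes 2 fell and 0 rose, against 0.292% and 0.21% of all genes. All 20 had a log2 fold change below 0, and the list's median was -0.82. Usp18, which takes the modifier ISG15 off proteins and damps interferon receptor signalling, had 20.3, 11.5 and 14.4 CPM in day 5 skin, against 42.4, 34.1 and 33.9 CPM in day 0 skin (-1.26 ± 0.25, edgeR adjusted p = 0.0484). Ifi27l2a, a small interferon-induced protein, had 125, 96.6 and 124 CPM at day 5, compared with 283, 302 and 263 CPM at day 0 (-1.29 ± 0.25, edgeR adjusted p = 0.0458). In both genes each day 5 library lay below each day 0 library. The interferon-induced genes Cmpk2, Slfn1 and Ifi206, outside the list and chosen after their values were seen, fell by 1.10, 1.26 and 1.38 on the log2 scale (edgeR adjusted p = 0.0484, 0.0457 and 0.0458); Slfn1 and Ifi206 have close copies, so their counts are less certain.

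Both interferon calls were lost when any 1 of the 3 day 5 libraries, day 0 replicate 2 or day 0 replicate 3 was left out (0 of 20 called), and without day 0 replicate 1 edgeR called 3 of the 20 lower (1.39% of all genes in that fit). Summed over the 20 genes the level was 1082, 569.6 and 964 CPM at day 5 and 1718, 1341 and 1618 CPM at day 0, with day 5 replicate 2 the lowest. Without that library the median was -0.58. Irf7, the factor that amplifies the response, had 122, 65.2 and 104 CPM at day 5 and 199, 182 and 239 CPM at day 0 (-1.09 ± 0.31, edgeR adjusted p = 0.105). Isg15 had 47.9, 25.4 and 27.7 CPM at day 5 and 91.0, 41.1 and 44.3 CPM at day 0, which overlap because day 5 replicate 1 exceeded day 0 replicates 2 and 3 (-0.80 ± 0.36, edgeR adjusted p = 0.240). Ifit3, which binds in a complex to foreign RNA, had 95.2, 37.1 and 59.8 CPM at day 5 and 154, 90.2 and 90.3 CPM at day 0, again with day 5 replicate 1 inside the day 0 range (-0.80 ± 0.32, edgeR adjusted p = 0.200).

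The promoters of these last 2 genes were picked because they hold interferon response elements. RefSeq's GRCm38.p6 table gives 250 bases before and 50 after each gene start, and the build of the deposited counts is not given in the sources used here. Capitals mark matches of the element, taken as 2 GAAA half-sites with any 2 bases between them, on either strand, written 5′ to 3′ along the gene. Isg15 lies at chr4:156200769-156201068 on the minus strand, and its 3 matches overlap into 1 run, while Ifit3 lies at chr19:34583279-34583578 on the plus strand with 2 matches on the opposite strand.
Isg15: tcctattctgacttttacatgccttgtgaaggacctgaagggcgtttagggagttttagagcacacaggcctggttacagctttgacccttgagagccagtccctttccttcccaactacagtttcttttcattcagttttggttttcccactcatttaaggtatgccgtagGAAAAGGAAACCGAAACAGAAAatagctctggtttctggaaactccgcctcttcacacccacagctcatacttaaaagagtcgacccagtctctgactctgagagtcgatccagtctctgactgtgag
Ifit3: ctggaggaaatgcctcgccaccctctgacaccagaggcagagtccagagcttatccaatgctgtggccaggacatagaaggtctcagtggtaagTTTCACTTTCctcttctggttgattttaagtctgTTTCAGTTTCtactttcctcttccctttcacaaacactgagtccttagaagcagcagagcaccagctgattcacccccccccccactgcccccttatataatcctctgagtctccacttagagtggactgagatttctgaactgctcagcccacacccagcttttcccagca
Of the 20 genes, 15 matched the table with 16 promoters, and 9 of those hold the motif, against 3.44% of all 32851 promoters of the same length. The called genes Usp18 and Ifi27l2a are not among the genes with a match. Whether they are among the 15 genes with a promoter to search is not given here. A match is a description of letters and does not show that a factor was bound.

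In the clock, ARNTL (BMAL1) pairs with CLOCK or NPAS2 and turns on E-box genes such as the Per and Cry repressors and Dbp, and ROR and REV-ERB factors act on Arntl through their shared element. Of 19 measured clock genes 1 rose and 2 fell, against 0.21% and 0.292% of all genes, and the list's median was 0.51. Arntl had 18.02, 19.3 and 14.02 CPM in day 5 skin, against 32.0, 35.9 and 39.9 CPM in day 0 skin, a 2.10-fold lower level with a narrow spread in both groups. Its log2 fold change was -1.07 ± 0.12, and its edgeR adjusted p of 0.0174 was the smallest of all genes, a value it shared with others. Npas2 had 4.73, 3.06 and 2.82 CPM at day 5, compared with 6.51, 11.7 and 11.7 CPM at day 0 (-1.49 ± 0.27, edgeR adjusted p = 0.0457). Per2, a repressor of the pair, had 9.12, 6.82 and 19.7 CPM in day 5 skin, against 2.63, 2.76 and 4.33 CPM in day 0 skin, and day 5 replicate 3 was at least 2-fold above each of the others of its group (1.88 ± 0.37, edgeR adjusted p = 0.0467).

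Further clock genes, chosen after their values were seen, lay higher at day 5 without a call. Dbp, a D-box activator, had 52.9, 38.5 and 73.2 CPM at day 5 and 23.9, 16.6 and 8.26 CPM at day 0, without overlap (1.75 ± 0.48, edgeR adjusted p = 0.0934). Per3 had 24.05, 15.1 and 28.3 CPM at day 5 and 8.80, 12.7 and 9.43 CPM at day 0 (1.12 ± 0.29, edgeR adjusted p = 0.0821), and Ciart, an inhibitor of the CLOCK and BMAL1 pair, had 3.62, 3.95 and 7.72 CPM and 3.17, 1.57 and 1.97 CPM in the same order (1.18 ± 0.35, edgeR adjusted p = 0.115). Bhlhe40, a repressor that binds E-boxes, had 62.3, 65.2 and 77.8 CPM at day 5 and 47.3, 36.3 and 40.4 CPM at day 0 (0.73 ± 0.15, edgeR adjusted p = 0.0509). DESeq2 called 7 of the 19 clock genes higher and 3 lower, against 3.00% and 3.83% of all genes. The labels give no hour of sampling, so time of day and day after wounding cannot be told apart. Arntl averaged 18.4 CPM at day 3 and 32.1 CPM at day 7, and Dbp averaged 44.5 and 12.4 CPM; the direct tests of Arntl at day 5 gave an edgeR adjusted p of 0.730 against day 3 and 0.0568 against day 7.

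The promoters of Arntl, Per3 and Ciart were picked because they hold a match to the clock's own elements. That of Npas2 is shown as a called gene without a match. The called gene Per2 is not among the list genes with a match. Whether it is among the genes with a promoter to search is not given here. RefSeq gives Arntl 2 starts, and the one with a match is shown. Capitals mark the E-box CACGTG, the ROR core AGGTCA and the D-box TTATGTAA, searched on both strands. Arntl lies at chr7:113207261-113207560 on the plus strand with 1 ROR core. This core starts 31 bases beyond the first base of the transcribed side. Npas2 lies at chr1:39194022-39194321 on the plus strand with no match. Per3 lies at chr4:151044616-151044915 on the minus strand with 2 D-boxes, and Ciart at chr3:95882179-95882478 on the minus strand with 3 E-boxes.
Arntl: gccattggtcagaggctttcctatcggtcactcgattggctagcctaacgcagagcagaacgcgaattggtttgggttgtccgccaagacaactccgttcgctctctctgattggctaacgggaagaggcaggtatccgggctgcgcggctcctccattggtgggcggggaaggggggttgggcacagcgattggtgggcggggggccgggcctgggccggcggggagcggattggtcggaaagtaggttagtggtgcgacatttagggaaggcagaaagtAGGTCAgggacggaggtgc
Npas2: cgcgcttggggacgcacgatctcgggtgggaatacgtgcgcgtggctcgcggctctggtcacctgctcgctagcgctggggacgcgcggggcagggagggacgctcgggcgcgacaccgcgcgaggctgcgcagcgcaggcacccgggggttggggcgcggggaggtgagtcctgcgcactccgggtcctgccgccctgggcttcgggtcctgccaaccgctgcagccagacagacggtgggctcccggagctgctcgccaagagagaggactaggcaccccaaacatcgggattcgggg
Per3: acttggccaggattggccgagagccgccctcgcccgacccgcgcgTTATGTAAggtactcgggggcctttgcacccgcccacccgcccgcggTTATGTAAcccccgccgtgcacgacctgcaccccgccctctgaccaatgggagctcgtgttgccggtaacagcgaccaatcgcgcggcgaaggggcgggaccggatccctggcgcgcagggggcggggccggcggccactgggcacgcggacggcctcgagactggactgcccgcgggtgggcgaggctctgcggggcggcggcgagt
Ciart: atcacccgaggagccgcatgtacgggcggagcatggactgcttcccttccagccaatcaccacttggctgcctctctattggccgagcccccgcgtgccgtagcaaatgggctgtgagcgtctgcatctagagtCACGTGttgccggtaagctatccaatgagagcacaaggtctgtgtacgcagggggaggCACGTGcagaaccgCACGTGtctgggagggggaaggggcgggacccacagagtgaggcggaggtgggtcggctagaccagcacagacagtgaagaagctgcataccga
Of the 19 genes, 16 matched RefSeq's GRCm38.p6 table with 21 promoters. The E-box is in 6 of these 21 and in 7.15% of all 32851 promoters, the ROR core in 5 and in 16.3%, and the D-box in 1 and in 0.938%.

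Of 33 structural matrix genes 1 rose and 0 fell, against 0.21% and 0.292% of all genes, and the list's median was 0.20. In this list 4 members were higher and 6 lower without overlap, against 12.3% and 13.8% of all genes tested. Col12a1, a collagen on the surface of collagen fibrils, had 401, 134 and 228 CPM at day 5, compared with 60.7, 38.4 and 71.6 CPM at day 0. Day 5 replicate 1 was the highest and replicate 2 the lowest, still above every day 0 library, with a log2 fold change of 2.16 ± 0.40 (edgeR adjusted p = 0.0457). Tnn, tenascin-N, a matrix glycoprotein outside the lists, had 65.8, 21.1 and 47.6 CPM in day 5 skin, against 9.38, 5.39 and 7.01 CPM in day 0 skin, a 6.17-fold higher level (2.62 ± 0.36, edgeR adjusted p = 0.0174). Among 19 genes of collagen folding and cross-linking 1 rose: P4ha3, a catalytic chain of prolyl 4-hydroxylase, had 27.7, 10.03 and 18.5 CPM at day 5, compared with 5.39, 5.90 and 6.89 CPM at day 0 (1.63 ± 0.32, edgeR adjusted p = 0.0467). Wisp1, a secreted matricellular protein induced by WNT and also outside the lists, had 58.2, 25.6 and 34.9 CPM in day 5 skin, against 10.2, 12.0 and 14.6 CPM in day 0 skin (1.69 ± 0.32, edgeR adjusted p = 0.0463). In all 4 genes day 5 replicate 1 was highest and replicate 2 lowest.

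The other matrix genes given here were not called by edgeR with all libraries. Postn, periostin, chosen after its values were seen, had 3398, 1315 and 2083 CPM at day 5 and 881, 954 and 1152 CPM at day 0, without overlap (1.19 ± 0.33, edgeR adjusted p = 0.0998). The values of Col1a1 given above did not overlap either and were lower at day 5 (-0.80 ± 0.40, edgeR adjusted p = 0.291). None of 28 matrix proteases and inhibitors and none of 20 myofibroblast and smooth muscle genes was called by edgeR. In a list of 18 markers of resting fibroblasts none was called, yet all 18 had a log2 fold change below 0, with a median of -0.78. Its members with the smallest p included Gsn, the actin-severing protein gelsolin, with 1225, 1285 and 1548 CPM at day 5 and 3663, 3992 and 4368 CPM at day 0 (-1.57 ± 0.33, edgeR adjusted p = 0.0568), and Igfbp6, a binding protein of insulin-like growth factors, with 135, 126 and 125 CPM and 259.6, 390.0 and 418 CPM in the same order (-1.47 ± 0.32, edgeR adjusted p = 0.0613). DESeq2 called 8 of the 18 lower (3.83% of all genes) and 5 of the 33 structural matrix genes higher (3.00% of all genes).

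Fblim1, the adhesion protein migfilin, had 37.4, 31.0 and 29.7 CPM at day 5, compared with 15.8, 6.28 and 8.14 CPM at day 0, where replicate 1 was the highest (1.69 ± 0.32, edgeR adjusted p = 0.0457). Fhl2, a LIM-domain adaptor of adhesions and the nucleus, had 30.3, 24.8 and 21.6 CPM in day 5 skin, against 8.61, 10.4 and 9.87 CPM in day 0 skin (1.41 ± 0.26, edgeR adjusted p = 0.0457). Kif26b, a kinesin-related protein, had 45.6, 18.8 and 19.8 CPM at day 5, compared with 5.98, 6.15 and 8.36 CPM at day 0 (2.04 ± 0.35, edgeR adjusted p = 0.0364). The groups were separate in all 3 genes, which the rule that named them required.

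The genes Runx2, Snai2 and Cd24a were called higher and were picked with their values in view. Runx2, a factor of bone and mesenchymal cells, had 18.3, 14.8 and 16.4 CPM at day 5, compared with 8.71, 7.67 and 9.21 CPM at day 0 (0.95 ± 0.13, edgeR adjusted p = 0.0174). Snai2, or Slug, a repressor used by migrating keratinocytes and mesenchymal cells, had 23.7, 25.4 and 23.7 CPM in day 5 skin, against 14.5, 15.1 and 16.0 CPM in day 0 skin (0.67 ± 0.11, edgeR adjusted p = 0.0323). Cd24a, a small surface glycoprotein, had 209, 176 and 192 CPM at day 5, compared with 108, 104 and 106 CPM at day 0 (0.86 ± 0.16, edgeR adjusted p = 0.0457). In each of the 3 genes the libraries of a group lay close together and the groups were separate.

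Among called genes with an ordinary symbol, no overlap and at least 5 CPM in the higher group, the largest rises were those of Fetub, Tdh and Serpina9. Fetub, the secreted protease inhibitor fetuin-B, had 18.1, 4.44 and 10.8 CPM in day 5 skin, against 0.429, 0.405 and 1.13 CPM in day 0 skin (4.07 ± 0.73, edgeR adjusted p = 0.0426). Tdh, the mitochondrial enzyme threonine dehydrogenase, had 17.5, 16.4 and 13.5 CPM at day 5, compared with 2.54, 1.09 and 2.28 CPM at day 0 (2.99 ± 0.56, edgeR adjusted p = 0.0457). Serpina9, a serine protease inhibitor, had 7.56, 9.19 and 4.25 CPM in day 5 skin, against 0.820, 0.835 and 1.53 CPM in day 0 skin (2.72 ± 0.43, edgeR adjusted p = 0.0323). The groups were separate in these 3 genes, though Fetub varied widely within day 5. Sorcs2, a sorting receptor for neurotrophin precursors, had 43.9, 27.4 and 24.8 CPM at day 5, compared with 8.56, 8.81 and 13.1 CPM at day 0 (1.65 ± 0.22, edgeR adjusted p = 0.0174). Hhipl1, Gpr176, an orphan receptor, and Igsf3 rose with log2 fold changes of 2.25 ± 0.39, 1.36 ± 0.23 and 1.10 ± 0.19 (edgeR adjusted p = 0.0364, 0.0364 and 0.0374).

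Vessel, hypoxia and mitochondrial genes had 1 called member each. Of 26 endothelial and vessel growth genes Angpt2 rose, a TIE2 ligand made by sprouting endothelium, with 27.8, 17.7 and 26.3 CPM in day 5 skin, against 12.9, 12.4 and 13.8 CPM in day 0 skin (0.88 ± 0.15, edgeR adjusted p = 0.0352). The list's median was 0.36, and its summed level was 1332, 818 and 1456 CPM at day 5 and 1094, 962 and 951 CPM at day 0, with day 5 replicate 2 below all day 0 libraries. Without day 5 replicate 2 edgeR called 5 of the 26 higher, against 0.363% of all genes. One of these was Emcn, endomucin of capillary and venous endothelium, chosen after its values were seen, with 38.1, 14.8 and 36.4 CPM at day 5 and 13.3 ± 0.624 CPM at day 0 (SD, n = 3; log2 fold change 1.49 without that library, edgeR adjusted p = 0.00117, against 0.0639 with it). Of 26 hypoxia and glycolysis genes Egln3 rose, a prolyl hydroxylase that marks HIF for decay, with 69.2, 51.8 and 54.2 CPM at day 5, compared with 31.3, 36.3 and 37.5 CPM at day 0 (0.74 ± 0.15, edgeR adjusted p = 0.0484).

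Of the 13 mitochondrially encoded genes mt-Nd4l rose, a subunit of complex I, with 1016, 872 and 953 CPM in day 5 skin, against 634, 531 and 643 CPM in day 0 skin (0.65 ± 0.12, edgeR adjusted p = 0.0452). It overlaps its neighbour mt-Nd4, so reads may have been split between them. In 11 of the 13 genes all day 5 libraries lay above all day 0 libraries (12.3% of all genes tested), the median was 0.49, and DESeq2 called 10 of them higher (3.00% of all genes). The mitochondrial share of counts moved with the days, and its part in the other results was not tested.

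**Figure D4:**
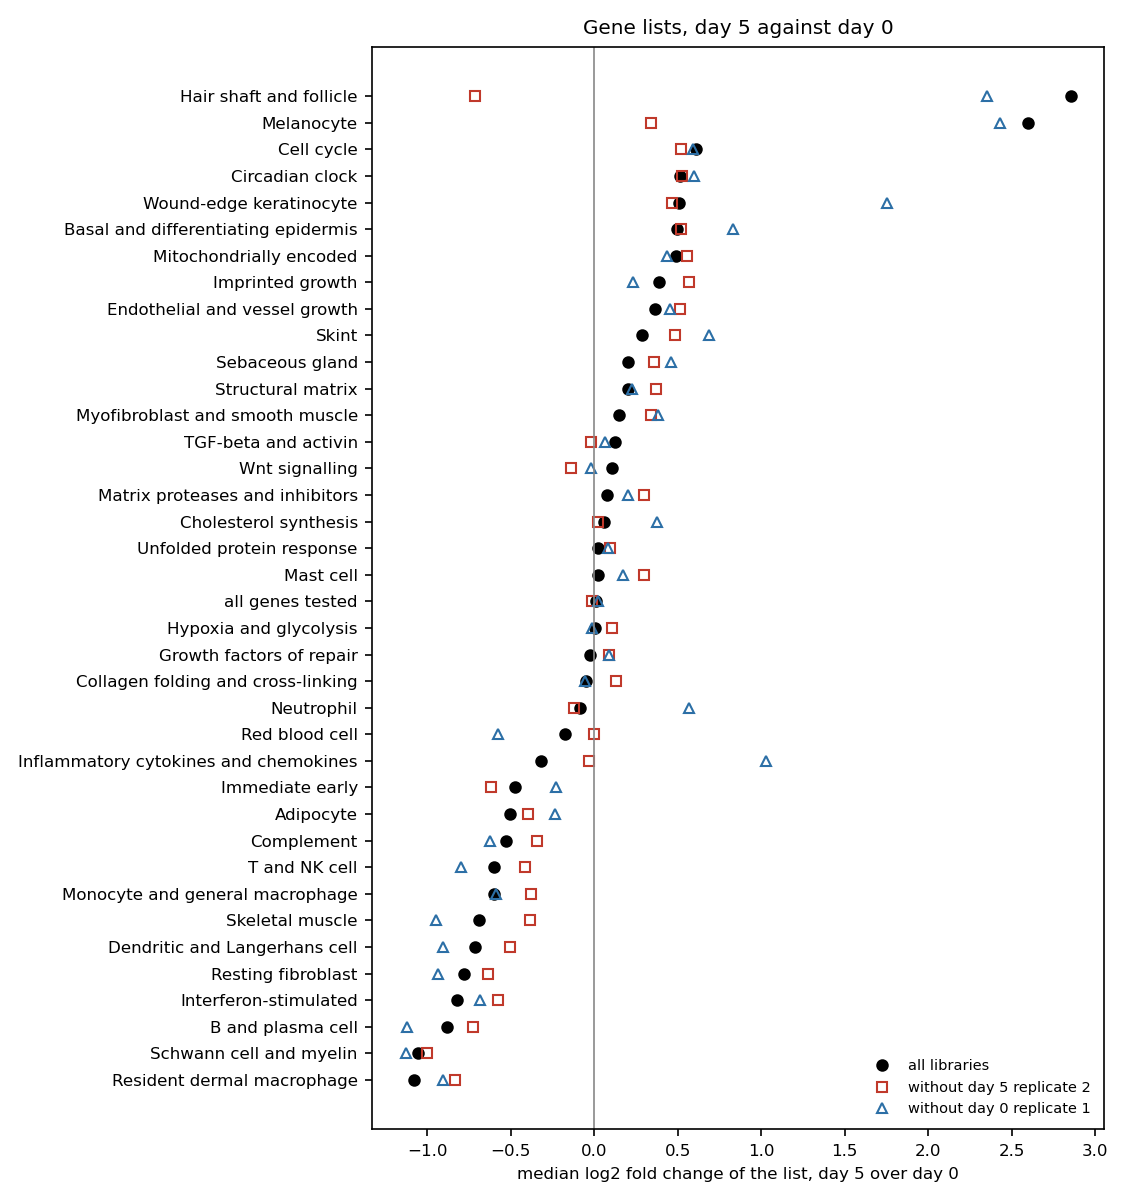
Median log2 fold change of day 5 over day 0 (x axis) for the 37 gene lists and for all genes tested, with all libraries (filled), without day 5 replicate 2 (squares) and without day 0 replicate 1 (triangles). The hair and melanocyte lists move most without day 5 replicate 2, and the keratinocyte and cytokine lists move most without day 0 replicate 1.

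Of 24 wound-edge keratinocyte genes 0 were called, with a median of 0.50. Krt6a, a keratin of migrating and stressed keratinocytes, had 1333, 1007 and 1204 CPM at day 5 and 708, 54.3 and 95.2 CPM at day 0, without overlap but with a wide spread at day 0 (2.05 ± 0.77, edgeR adjusted p = 0.186); it has the near copy Krt6b, so its counts are less certain. Without day 0 replicate 1 the list's median was 1.75, 6 of the 24 genes were called higher (1.45% of all genes), and Krt6a had a log2 fold change of 3.98 (edgeR adjusted p = 0.00288). Summed over the list the level was 5442, 5163 and 4301 CPM at day 5 and 3258, 760.4 and 960.3 CPM at day 0.

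Of 24 genes of basal and differentiating epidermis 22 had a log2 fold change above 0 and 0 were called (median 0.49). Its members Krt14 and Casp14 had log2 fold changes of 1.32 ± 0.37 and 1.78 ± 0.47 (edgeR adjusted p = 0.102 and 0.0852); Casp14, a caspase of cornifying cells, had 158, 100.2 and 109 CPM at day 5 and 29.1, 37.6 and 39.7 CPM at day 0. Klk14, a protease that sheds cornified cells, rose: it had 7.19, 2.22 and 3.98 CPM at day 5, compared with 0.205, 0.152 and 0.139 CPM at day 0 (4.73 ± 0.72, edgeR adjusted p = 0.0266). Sprr2k, of the small proline-rich family of the cornified envelope, had 1.28, 0.765 and 0.354 CPM in day 5 skin, against 0.0186, 0.0253 and 0.0199 CPM in day 0 skin (edgeR adjusted p = 0.0174); its day 0 values rest on too few reads for a fold change. Both were chosen after their values were seen and both are weakly expressed, and Sprr2k has close copies.

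Of 30 cell cycle genes 29 had a log2 fold change above 0 and 22 did not overlap between the groups (12.3% of all genes tested were higher without overlap), with a median of 0.61, while edgeR (0.21% of all genes higher) and DESeq2 (3.00%) each called 0 of them. Top2a, the topoisomerase of dividing cells, had 82.3, 101 and 92.6 CPM at day 5 and 55.3, 45.6 and 60.1 CPM at day 0 (0.78 ± 0.30, edgeR adjusted p = 0.189). The summed level of the list was 942, 1270.0 and 1033 CPM at day 5, highest in the hair-rich replicate 2, and 771, 672 and 784 CPM at day 0.

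Hair follicle genes were high in 1 of the day 5 libraries. Of 29 measured members 0 were called, the median log2 fold change was 2.85, and without day 5 replicate 2 it was -0.71. The summed level was 1312, 23506 and 165 CPM at day 5 and 197, 501 and 2576 CPM at day 0. Such a peak was not particular to day 5, since day 7 replicate 3 had a summed level of 28957 CPM. Tchh, trichohyalin of the inner root sheath, chosen after its values were seen, had 331, 5269.8 and 12.2 CPM at day 5 and 16.1, 91.7 and 497 CPM at day 0, so day 5 replicate 2 was above every day 0 library and day 5 replicate 3 was below every one. Krt75, a keratin of the follicle's companion layer, had 24.5, 339 and 14.1 CPM at day 5 and 20.2, 12.8 and 40.3 CPM at day 0, and its log2 fold change of 2.36 with all libraries was -0.34 without day 5 replicate 2. Shh, the hedgehog ligand of growing follicles, had 2.32, 10.7 and 0.807 CPM at day 5 and 0.317, 1.04 and 1.81 CPM at day 0 (edgeR adjusted p = 0.217).

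Melanocyte genes followed the same library. Of 12 genes 0 were called, and the median was 2.59 with all libraries and 0.34 without day 5 replicate 2. Their summed level was 519 CPM in day 5 replicate 2 and 642 CPM in day 7 replicate 3. Tyrp1, an enzyme of melanin synthesis, had 12.7, 131 and 14.1 CPM at day 5 and 6.34, 3.64 and 12.6 CPM at day 0 (2.80 ± 1.21, edgeR adjusted p = 0.235). Sox10, which these cells also express, showed no such peak in day 5 replicate 2. Among the 86 called genes day 5 replicate 2 was the lowest of its group in 54, of which 21 were rises and 33 were falls. The share over all genes tested was not taken, so nothing is read from that count.

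**Figure D5:**
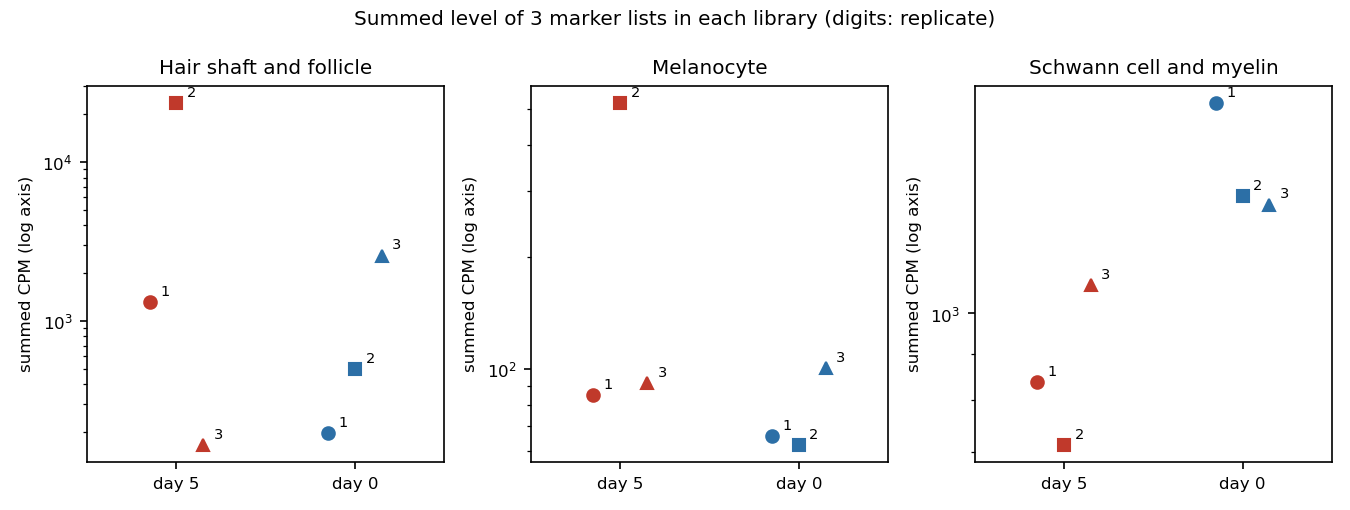
Summed CPM on a log axis of the hair shaft and follicle, melanocyte and Schwann cell and myelin lists in each day 5 library (left) and each day 0 library (right), with the replicate number beside each point. Day 5 replicate 2 is far above the other libraries shown in the first 2 lists, while in the third all day 5 libraries lie below all day 0 libraries.

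In some called genes day 0 replicate 1 lay apart from the other day 0 libraries. It was 2-fold or more below their mean in 8 of the 86 genes, and those with near copies have uncertain counts. The share over all genes tested was not taken, so the number of such genes is given as a description only. H2-T10, a nonclassical class I gene, had 6.52, 4.33 and 6.52 CPM at day 5 and 9.12, 34.0 and 36.0 CPM at day 0 (-2.19 ± 0.41, edgeR adjusted p = 0.0457). The similar H2-T24 had 17.1, 7.46 and 14.2 CPM at day 5 and 23.2, 68.5 and 82.4 CPM at day 0 (-2.17 ± 0.42, edgeR adjusted p = 0.0463). Ifi208, of a cluster of similar interferon-induced genes, had 0.982, 0.503 and 0.827 CPM in day 5 skin, against 1.10, 17.9 and 18.9 CPM in day 0 skin (-4.03 ± 0.79, edgeR adjusted p = 0.0467). Gm10182, a predicted gene chosen after its values were seen, had 1.83, 2.24 and 1.57 CPM at day 5 and 1.86, 51.6 and 50.4 CPM at day 0, and its groups overlapped. In these genes day 0 replicate 1 lay near the day 5 libraries. Ifi208 averaged 0.949, 0.851 and 0.701 CPM at day 1, 3 and 7. H2-T10 averaged 7.57, 6.35 and 4.64 CPM at those times, and H2-T24 averaged 22.8, 19.2 and 8.26 CPM. In Ifi208, H2-T10 and H2-T24, day 0 replicates 2 and 3 thus lay above every other library of the course. The cause was not tested.

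In the other direction, day 0 replicate 1 was at least 2-fold above the mean of the other day 0 libraries in 3 called genes. They were Dusp1, Fblim1 and, chosen after its values were seen, 2610528A11Rik. For this number too the share over all genes tested was not taken. Dusp1, a phosphatase that switches off MAP kinases and the called member among 17 immediate early genes, had 41.8, 29.3 and 50.04 CPM in day 5 skin, against 272, 131 and 96.8 CPM in day 0 skin (-2.04 ± 0.38, edgeR adjusted p = 0.0457). Fos, chosen after its values were seen, had 16.2, 14.9 and 31.6 CPM at day 5 and 339.7, 66.1 and 27.8 CPM at day 0, and the groups overlapped (edgeR adjusted p = 0.122). Without day 0 replicate 1 the log2 fold change of Dusp1 was -1.50 (edgeR adjusted p = 0.0313).

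Several lists had no called member. Of 20 neutrophil genes and 21 inflammatory cytokines and chemokines 0 were called, with medians of -0.09 and -0.32, and without day 0 replicate 1 these medians were 0.57 and 1.03. The 23 skeletal muscle genes had a median of -0.69, and Casq1, the calcium store protein calsequestrin, had 102, 79.0 and 133 CPM at day 5 and 174, 276 and 238 CPM at day 0 (-1.13 ± 0.35, edgeR adjusted p = 0.123). Of 11 Skint genes, which act in epidermal T cell selection, 0 were called (median 0.29). The medians of 17 dendritic and Langerhans cell genes and 22 T and NK cell genes were -0.71 and -0.60. Wnt signalling, TGF-beta and activin, repair growth factors, the unfolded protein response and cholesterol synthesis had medians of 0.11, 0.12, -0.03, 0.02 and 0.06. Medians of the remaining lists were -0.51 for adipocyte, 0.20 for sebaceous gland, 0.02 for mast cell, -0.17 for red blood cell and 0.39 for imprinted growth genes, none of them with a call. The 9 B and plasma cell genes had a median of -0.88, matrix proteases 0.08 and myofibroblast and smooth muscle genes 0.14. Among lists with 1 call, the median was -0.05 for collagen folding, 0.00 for hypoxia and glycolysis and -0.48 for immediate early genes.

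The direct tests of day 5 against its neighbours in time called few genes. Against day 3 edgeR called 4 genes, 1 higher (0.00584%) and 3 lower (0.0175%), which is 0.0233% in all, and against day 7 it called 1 (0.00584%), while 2586 and 1573 genes had an unadjusted p under 0.05. None of the 86 genes was called against day 3 or day 7. Of the 36 rises the day 5 mean was above the day 3 mean in 26 and above the day 7 mean in 21. Of the 50 falls the day 5 mean was below the day 3 mean in 48, with a smallest edgeR adjusted p of 0.0559. It was above the day 7 mean in 21, with a smallest edgeR adjusted p of 0.0568. The rises were selected for high and the falls for low day 5 values against day 0. The same day 5 values enter these counts, so nothing about a further change is read from them. Prx averaged 19.04 CPM at day 3, 11.5 CPM at day 5 and 18.3 CPM at day 7, with edgeR adjusted p values of 0.371 and 0.620 for day 5 against the others. Tnn averaged 24.9 CPM at day 3, 44.8 CPM at day 5 and 58.1 CPM at day 7 (edgeR adjusted p = 0.296 and 0.825).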

How the data were processed

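Skin mRNA libraries of 5 times, 3 per time, were made with a VAHTS mRNA-seq V2 kit, per the labels' protocols. The values the authors deposited are estimated counts by gene symbol, and the submitters' processing notes name kallisto 0.43. The genome build is not given in the sources used here, nor are the index, the annotation and the use of strand. Pseudoalignment shares reads among similar transcripts, so near-identical genes have uncertain values. The estimated counts were rounded to whole numbers. Of 30307 rows, 26 were named as dates and held 0.155% to 0.179% of the counts; they were left out. Library totals ran from 38062562 to 60450396.

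Genes were filtered with edgeR 4.0.16 (filterByExpr, minimum count 10), scaled by TMM and fitted in one robust quasi-likelihood model of all 15 libraries with time as the only term, under R 4.3.3 and limma 3.58.1. The contrasts were day 5 minus day 0, day 3 and day 7, with Benjamini-Hochberg adjustment over 17136 genes and a threshold of 0.05. Standard errors were the log2 fold change divided by the root of the F statistic. The common biological coefficient of variation was 30.9%. CPM are TMM-scaled, and their SDs are over 3 libraries. On simulated counts for 16980 genes the test found 48% of 100 genes changed 2-fold and 85% of 100 changed 4-fold, with 3 false calls. Each gene was drawn independently around a mean shared by all libraries, apart from the set changes. No simulated library therefore stood apart as some real ones did, and these figures do not give the recovery or the false calls in the real libraries.

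Lists (37, with 714 of 720 genes tested) and the genes named were chosen with earlier results of these data known. Genes were named if they were among the 15 highest or lowest called genes with at least 2-fold change, 5 CPM in the higher group, no overlap and an ordinary symbol (no predicted, clone, -rs or -ps name), or among up to 5 called members (or, with none called, 3 of smallest p) of a list, or among 4 each way against day 3 and day 7; a rule for genes called with every library left out found none. Genes outside this rule, where not said beside them, were Irf7, Isg15, Ifit3 and Col1a1. Alternatives were DESeq2 1.42.0, its size factors, no filter, the 6 libraries alone, a replicate block and each library left out. Some called genes are not reported here.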

Additional observations from a re-analysis of the deposited data

Results flagged for a closer look

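A difference between times was tested directly for day 5 against day 3, and the 4 genes given here passed, all chosen by that test. Pf4, platelet factor 4, had 77.3, 59.0 and 76.8 CPM in day 5 skin, against 147, 139.6 and 135 CPM in day 3 skin (log2 fold change -0.99 ± 0.12, edgeR adjusted p = 0.0224). Slc16a3, a lactate transporter, had 30.7, 21.6 and 30.9 CPM in day 5 skin, against 82.6, 67.8 and 70.2 CPM in day 3 skin (-1.41 ± 0.16, edgeR adjusted p = 0.0159). In both genes the groups were separate. Styk1, a kinase-like membrane protein, differed from day 3 by 0.93 ± 0.13 and the predicted gene Gm14548 by -1.54 ± 0.22 on the log2 scale (edgeR adjusted p = 0.0415 each).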

How the results depend on the processing

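All 86 genes kept their direction under every alternative run, but they were selected from the same libraries, so nothing is read from that. For day 5 against day 0 the count of called genes was 86 and moved to 0 with the 6 libraries fitted alone (3109 genes at an unadjusted p under 0.05), to 1159 with DESeq2, to 27 with a replicate block (24 of them among the 86), and ran from 0 to 495 with single libraries left out; size factors gave 100 and no filter 81. Without both day 5 replicate 2 and day 0 replicate 1, a setting chosen after seeing the data, it was 431, with 285 higher and 146 lower. Against day 3 the count was 4, and it was 532 with DESeq2, 9 without the filter, 1 with the replicate block and 0 to 25 with a library left out. Against day 7 it was 1, and it was 152 with DESeq2, 0 with the replicate block (1438 genes at an unadjusted p under 0.05) and 0 to 1 with a library left out. Deviations of day 5 and day 0 libraries of the same replicate number from their group means correlated at -0.0189, -0.0761 and -0.516. Day 5 replicate 2 was closest to day 0 replicate 3 (0.453). Each group mean rests on 3 libraries, so these values cannot settle whether the replicate numbers pair the samples. With single libraries left out the log2 fold change ran from -0.34 to 2.97 for Krt75 and from -0.23 to 5.15 for Tchh, below 0 in the fits without day 5 replicate 2; without day 0 replicate 1 as well, they were -0.47 and -0.78. The cause of these shifts was not tested. At this depth genes such as Sprr2k, under 2 CPM in every library of both groups, rest on few reads.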
